A study of Mus musculus with 34 samples.

Results

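Ms4a1, Cd79a, Cd79b, Jchain, Mzb1, Ighm and Igkc are 7 genes that mark B cells and the antibody-secreting plasma cells into which B cells develop. They were taken by gene symbol, with no measured value in the rule, but they were chosen with earlier results of these data known. All 7 were among the 15145 genes counted in adipose tissue, and all 7 were among the 15112 genes that passed the low-count filter there. In heart 13238 genes were counted and 13230 passed the filter, Ighm and Igkc among them. The other 5 genes were not analysed in heart.

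The libraries came from adipose tissue and heart of C57BL/6J mice aged 20 to 22 months, fed 1 of 3 diets without restriction. HFCD+FMD mice ate a high-fat, high-calorie diet (HFCD) with 60% of its calories from fat, and once in 4 weeks took a fasting mimicking diet (FMD), a short low-calorie regimen, for 5 days. From cycle 6 onward these mice ate the control diet for 2 days after each FMD. HFCD mice ate the high-fat diet alone, and control mice ate a diet with 10% of its calories from fat. The design text speaks of 18 mice and of tissue taken 4 days after the end of the last of 11 cycles. Strain and housing were shared by all 3 diets. Adipose libraries of every diet came from mice of 20 to 21 months, as did heart libraries of the HFCD+FMD and control diets, while heart HFCD libraries came from mice of 20 to 22 months. The labels do not give the sex of the mice or the fat depot, and they do not tie an adipose library to a heart library. From adipose tissue there were 6 HFCD+FMD libraries (27868228 to 40831656 counts in total), 4 HFCD libraries (23523322 to 36688935) and 3 control libraries (15604982 to 28495331). From heart there were 4 HFCD+FMD libraries (17050559 to 47859170), 5 HFCD libraries (23707218 to 41712499) and 5 control libraries (16848195 to 33180337).

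The adipose libraries carried adipocyte transcripts throughout, since 10 adipocyte markers summed to 19516 to 49218 CPM in every library, where CPM is the count of a gene scaled to a library of 1000000 counts. Transcripts of heart muscle were present in 4 of them. Myh6, the heart muscle myosin heavy chain, stood at 43.9 CPM in HFCD+FMD replicate 6, at 36.3 and 12.8 CPM in HFCD replicates 1 and 2 and at 26.9 CPM in control replicate 1, against 0.0905 to 1.67 CPM in the other 9. Leaving out these 4 libraries leaves 5 HFCD+FMD, 2 HFCD and 2 control libraries, and calls are given both ways. Of 8 markers of lymph node stroma and high endothelium, Chst4, Fut7 and Clu were tested and none passed in any adipose comparison. The other 5 (Madcam1, Glycam1, Ccl21a, Ccl19 and Fdcsp) were not analysed here.

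B cells carry an antibody in their membrane as the antigen receptor, and the proteins encoded by Cd79a and Cd79b pass its signal into the cell. After activation a B cell can become a plasma cell, which loses most B cell surface proteins, enlarges its secretory apparatus and releases antibody. Fat tissue of mice houses both kinds of cell: B cells lie in lymphoid clusters of visceral fat and their number and products have been linked to obesity and ageing.

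The members lie on 7 different chromosomes and were placed in the GRCm38 build. Ms4a1 lies at chr19:11249675-11266241 (minus strand), Cd79a at chr7:24897381-24902197 (plus strand) and Cd79b at chr11:106311341-106314762 (minus strand). Jchain lies at chr5:88519809-88527891 (minus strand). The immunoglobulin constant genes lie at chr12:113418558-113422730 (Ighm, minus strand) and chr6:70726435-70726966 (Igkc, plus strand). Ms4a1 overlaps an antisense gene, 4930526L06Rik, and Igkc overlaps the noncoding gene Gm30211 on the same strand. Whether reads were counted by strand is not given in the sources used here, so reads of these overlaps may be shared.

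Promoter sequences are shown for 1 gene of each kind, Cd79a for the B cell surface genes and Jchain for the secretory genes. Sequences are given for these 2 of the 7 members only, and run from 250 bases before to 50 bases after the RefSeq start (GRCm38.p6). Promoters of the other members are not reported here, which does not mean that none is known. The Cd79a promoter is chr7:24897247-24897546 on the plus strand, and the Jchain promoter is chr5:88527848-88528147 on the minus strand.
Cd79a: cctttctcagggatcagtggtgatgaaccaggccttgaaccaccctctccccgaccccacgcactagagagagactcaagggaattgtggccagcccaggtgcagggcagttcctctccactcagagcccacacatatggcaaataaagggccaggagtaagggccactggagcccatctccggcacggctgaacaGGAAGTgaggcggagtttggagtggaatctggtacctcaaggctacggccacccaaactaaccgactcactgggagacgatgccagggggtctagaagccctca
Jchain: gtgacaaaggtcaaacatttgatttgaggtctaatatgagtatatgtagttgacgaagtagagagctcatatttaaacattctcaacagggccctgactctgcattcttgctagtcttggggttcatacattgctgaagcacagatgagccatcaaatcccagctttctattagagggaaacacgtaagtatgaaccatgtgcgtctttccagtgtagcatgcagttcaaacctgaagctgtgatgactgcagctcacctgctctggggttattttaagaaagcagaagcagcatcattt
Capitals mark a match to the core of sites bound by ETS factors (GGAAGT, either strand), at bases -54 to -49 from the start of Cd79a. That motif occurs in 23.8% of 32851 promoters of this length. The octamer ATGCAAAT, bound by Oct factors together with the B cell coactivator encoded by Pou2af1, occurs in 1.74% of them, and the core of sites bound by early B cell factor (CCCNNGGG) in 13.7%. Neither of these 2 motifs is spelled in the Cd79a or Jchain window. Only exact spellings were searched, so a site that departs from these letters is missed, and a window without a match may still hold one.

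**Figure D1:**
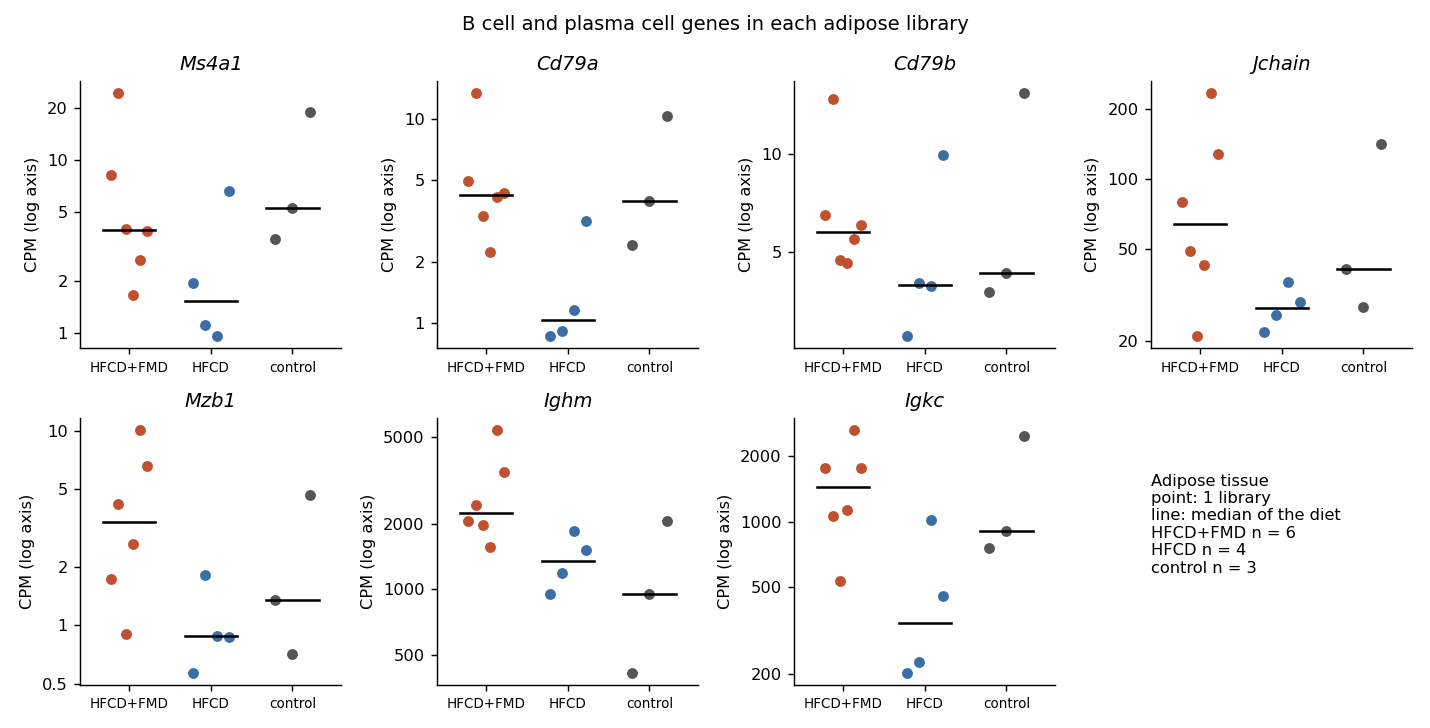
Each panel shows 1 member in adipose tissue, with CPM on a log axis and 1 point per library (HFCD+FMD n = 6, HFCD n = 4, control n = 3); lines are medians. For every member the ranges of any 2 diets overlap, and single libraries such as HFCD+FMD replicate 2 (Ms4a1 24.2 CPM) and HFCD+FMD replicate 5 (Jchain 235 CPM) stand above the rest of their diet.

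The first comparison, HFCD+FMD against HFCD in adipose tissue, asks what the fasting cycles changed on top of the high-fat diet. From cycle 6 onward these cycles included 2 days on the control diet after each FMD. The part of the FMD and that of days off the high-fat diet cannot be told apart. All 7 members had a higher fitted level under HFCD+FMD, with a median log2 fold change of 1.64 against 0.01 over all genes tested. None of the 7 passed the test (edgeR quasi-likelihood F-test, Benjamini-Hochberg adjusted p below 0.05 over all genes), where 0.205% of all genes passed, 0.0265% as higher and 0.179% as lower. At an unadjusted p below 0.05 there were 5 of 7, against 1693 of 15112 genes (11.2%), and DESeq2 called 1 and limma voom 0. Without the 4 libraries with heart muscle transcripts the median of the members was 1.11, and 0 of 7 passed or had an unadjusted p below 0.05 by edgeR. Over all genes 1 passed in that fit. In bulk tissue, a change in the number of cells of a type and a change in RNA per cell cannot be told apart.

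Markers of some other cell types lay to 1 side between the same diets, although none passed by edgeR. Others were mixed, with 5 T cell genes above 0 and 6 below, 6 adipocyte markers above and 4 below, and 5 endothelium markers above and 2 below. All 9 mesothelium markers had a higher fitted level under HFCD+FMD than under HFCD (median log2 fold change 0.94), and they summed to 31.0 to 215 CPM in HFCD+FMD libraries and 23.6 to 124 CPM in HFCD libraries. Of 12 macrophage markers 11 were below 0 (median -0.46), with sums of 1650 to 4207 CPM in HFCD+FMD libraries and 2777 to 5860 CPM in HFCD libraries. All 8 heart muscle markers were below 0 (median -0.75), with sums of 3.11 to 139 CPM in HFCD+FMD libraries and 11.4 to 114 CPM in HFCD libraries. Their part in the values of the members was not tested.

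Ms4a1 encodes CD20, a membrane protein of B cells that is lost in plasma cells. It ranged from 1.66 to 24.2 CPM in HFCD+FMD libraries with a median of 3.94 CPM, stood at 1.94, 1.11, 0.957 and 6.61 CPM in the 4 HFCD libraries, and at 3.49, 5.25 and 18.9 CPM in the 3 control libraries. The 3 diets overlapped, and the 2 lowest values were those of HFCD replicates 3 and 2. Its log2 fold change was 1.5 (SE 0.83, adjusted p = 0.524 by edgeR) for HFCD+FMD against HFCD.

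Cd79a encodes the alpha chain of the receptor's signalling pair. Its values were 2.22 to 13.3 CPM under HFCD+FMD (median 4.24), 0.869, 0.917, 1.17 and 3.16 CPM under HFCD, and 2.42, 3.96 and 10.3 CPM on the control diet. HFCD replicates 1, 2 and 3 lay below all other libraries, while HFCD replicate 4 lay within the range of both other diets. The log2 fold change was 1.84 (SE 0.59, adjusted p = 0.269 by edgeR) for HFCD+FMD against HFCD, and DESeq2 put the same gene at 1.83 with an adjusted p of 0.0394.

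Cd79b encodes the beta chain. It stood at 4.62 to 14.8 CPM under HFCD+FMD (median 5.76), at 2.76, 4.00, 3.94 and 9.93 CPM under HFCD and at 3.78, 4.31 and 15.4 CPM on the control diet. HFCD replicates 1, 2 and 3 lay below all HFCD+FMD libraries, and HFCD replicate 4 lay within their range. The log2 fold change for HFCD+FMD against HFCD was 0.45 (SE 0.49, adjusted p = 0.766 by edgeR), the smallest of the 7.

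HFCD+FMD replicate 2 was the highest of the 6 HFCD+FMD libraries for each of these 3 genes, and control replicate 5 and HFCD replicate 4 were the highest of their own diets. Without HFCD replicate 4 the log2 fold changes for HFCD+FMD against HFCD were 2.46 for Ms4a1, 2.45 for Cd79a and 0.98 for Cd79b, and none passed (adjusted p 0.267 to 0.588 by edgeR). Without HFCD+FMD replicate 2 they were 0.63, 1.33 and 0.093 (adjusted p 0.847, 0.501 and 0.971), and without the 4 libraries with heart muscle transcripts Cd79b stood at 0.063 (adjusted p = 0.977).

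Jchain encodes the joining chain that links IgM and IgA into polymers. Its values were 21.1 to 235 CPM under HFCD+FMD (median 64.2), 21.9, 25.8, 35.9 and 29.5 CPM under HFCD, and 41.1, 28.1 and 142 CPM on the control diet. The 4 HFCD libraries lay within a narrow band, and 5 of the 6 HFCD+FMD libraries lay above it. The log2 fold change was 1.71 (SE 0.63, adjusted p = 0.341 by edgeR) for HFCD+FMD against HFCD.

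Mzb1 encodes an endoplasmic reticulum protein that assists antibody assembly and secretion in marginal zone B cells and plasma cells. The gene lies at chr18:35647267-35649367 (minus strand) and overlaps SPATA24 on the same strand. It was low throughout, at 0.905 to 10.1 CPM under HFCD+FMD (median 3.39), at 0.571, 1.81, 0.886 and 0.873 CPM under HFCD and at 1.36, 0.711 and 4.68 CPM on the control diet. Counts behind these values ran from 14 to 449 per library. The log2 fold change for HFCD+FMD against HFCD was 2.07 (SE 0.70, adjusted p = 0.298 by edgeR), the largest of the 7.

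Ighm encodes the constant part of the IgM heavy chain. It stood at 1567 to 5403 CPM under HFCD+FMD (median 2249), at 946, 1191, 1858 and 1513 CPM under HFCD and at 413, 952 and 2068 CPM on the control diet. HFCD+FMD replicates 5 and 6 were the highest libraries, and control replicate 1 the lowest. The log2 fold change for HFCD+FMD against HFCD was 1.03 (SE 0.44, adjusted p = 0.406 by edgeR).

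Igkc encodes the constant part of the kappa light chain. Its values were 536 to 2647 CPM under HFCD+FMD (median 1446), 203, 226, 1024 and 457 CPM under HFCD, and 755, 903 and 2468 CPM on the control diet. Of the HFCD libraries, 3 of 4 lay below all libraries of the other diets, and HFCD replicate 3 lay among them. The log2 fold change for HFCD+FMD against HFCD was 1.64 (SE 0.56, adjusted p = 0.301 by edgeR), and without the 4 libraries with heart muscle transcripts it was 0.95 (adjusted p = 0.624).

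Levels were compared between members per kilobase of exon. On the scale of mean CPM per kilobase in HFCD+FMD libraries, Igkc stood at 2790 and Ighm at 1494, Jchain at 36.7, Cd79b at 4.91, Cd79a at 3.70, Mzb1 at 3.58 and Ms4a1 at 1.20. The neighbouring means of Cd79b, Cd79a and Mzb1 differ by less than the spread between libraries. In HFCD libraries the corresponding means were 897 for Igkc, 730 for Ighm and 11.2 for Jchain, and in control libraries 2585, 607 and 27.9.

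**Figure D2:**
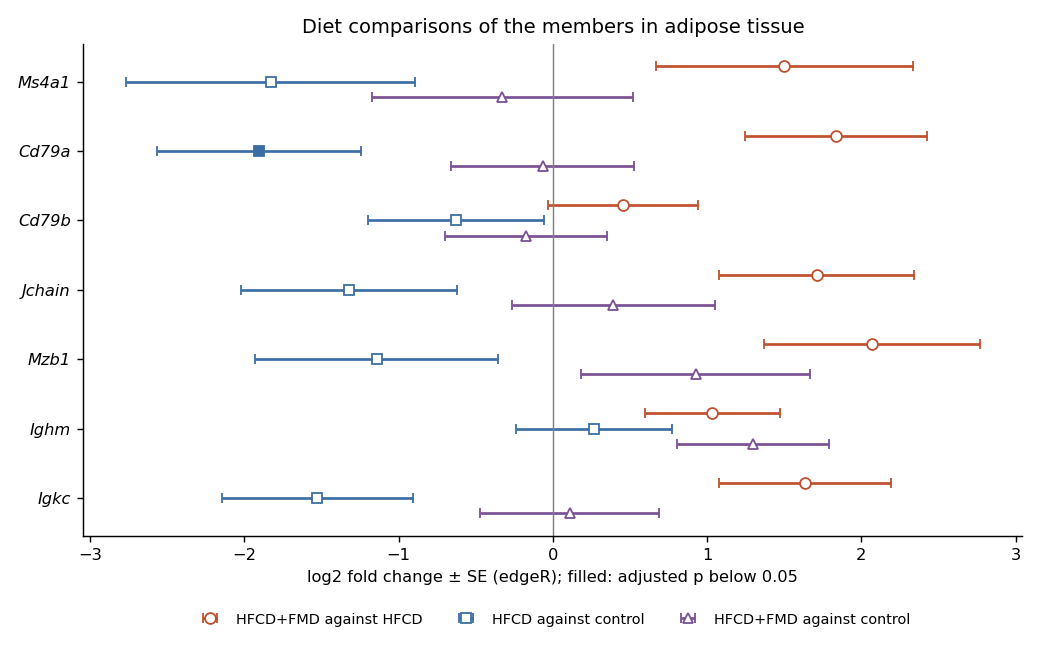
Fitted log2 fold changes (horizontal axis) of the 7 members in adipose tissue, with bars of 1 SE, for the 3 diet comparisons (markers); a filled marker is an adjusted p below 0.05. The single filled marker is Cd79a for HFCD against control, at -1.90.

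HFCD against control asks what the high-fat diet did. Cd79a was lower under HFCD (log2 fold change -1.90, SE 0.66, adjusted p = 0.0444 by edgeR), and it was the only member of 7 to pass, where 30.0% of all genes passed, 15.7% as higher and 14.2% as lower. The fitted change was below 0 for 6 of 7 members, with a median of -1.32 against 0.00 over all genes. Ms4a1 stood at -1.83 (SE 0.94, adjusted p = 0.155), Igkc at -1.53 (SE 0.62, adjusted p = 0.0790) and Jchain at -1.32 (SE 0.70, adjusted p = 0.169). Mzb1 was at -1.14 and Cd79b at -0.63, and Ighm was at 0.27 with an SE of 0.50. At an unadjusted p below 0.05 there were 2 of 7, against 6392 of 15112 genes (42.3%), and DESeq2 called 1 and limma voom 0.

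The call of Cd79a was not stable. It was lost with limma voom (-2.08, adjusted p = 0.0513), without the 4 libraries with heart muscle transcripts (-1.73, adjusted p = 0.249), and in 8 of 13 fits that left out 1 library: control replicates 3 and 5, HFCD+FMD replicates 1, 5 and 6, and HFCD replicates 1, 2 and 3 (adjusted p 0.0515 to 0.238). Without control replicate 5 the log2 fold change was -1.10 (adjusted p = 0.238). The same omission put Igkc at -0.80 (adjusted p = 0.361), Ms4a1 at -0.75 (adjusted p = 0.602), Jchain at -0.29 (adjusted p = 0.787), Cd79b at 0.34 and Mzb1 at 0.058. Igkc passed with age as a covariate (-1.68, adjusted p = 0.0221) and without HFCD replicate 3 (-2.22, adjusted p = 0.0208).

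HFCD+FMD against control asks what remained of the high-fat diet under fasting cycles with their days on the control diet. None of the 7 members passed by edgeR, where 19.7% of all genes passed, 10.5% as higher and 9.25% as lower. Of the 7, 1 had an unadjusted p below 0.05, against 5456 of 15112 genes (36.1%), and DESeq2 and limma voom called 1 each. That gene was Ighm, which edgeR put at 1.30 on the log2 scale (SE 0.49, adjusted p = 0.0776), with 1.29 (adjusted p = 0.0184) by DESeq2, 1.54 (adjusted p = 0.0448) by limma voom and 1.46 (adjusted p = 0.0398) on the deposited log2 values. Without control replicate 5 it was 2.05 (adjusted p = 0.0173). It was 0.83 (adjusted p = 0.366) without the 4 libraries with heart muscle transcripts. The other 6 members lay between -0.33 for Ms4a1 and 0.93 for Mzb1, and the adjusted p of each was at least 0.389. These comparisons share libraries, so they are not independent of each other.

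No member had ranges of CPM that stood apart between diets, 0 of 7 in each adipose comparison. Over all genes, ranges stood apart in 3.34% of genes for HFCD+FMD against HFCD, in 39.5% for HFCD against control and in 21.0% for HFCD+FMD against control.

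Ratios between members cancel library size and show where members parted. The ratio of Cd79a to Cd79b was 0.481 to 0.901 under HFCD+FMD (median 0.737), 0.315, 0.229, 0.297 and 0.318 in the 4 HFCD libraries, and 0.641, 0.918 and 0.671 in the 3 control libraries. All 4 HFCD libraries lay below all 9 others. This includes HFCD replicate 4, whose levels of both genes lay within the range of the other diets, and among the libraries without heart muscle transcripts the 2 HFCD libraries still lay lowest. Counts of Cd79a in the HFCD libraries were 33 to 76 and those of Cd79b 111 to 239.

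The ratio of Igkc to Ighm was 0.271 to 0.858 under HFCD+FMD (median 0.50), 0.214, 0.189, 0.551 and 0.302 under HFCD, and 1.83, 0.948 and 1.19 on the control diet. The 3 control libraries lay above the 10 libraries of both high-fat diets, and HFCD+FMD and HFCD overlapped. The ratio of Jchain to Ms4a1, a secretory against a B cell surface gene, was 2.02 to 89.1 under HFCD+FMD (median 17.7), 11.3, 23.2, 37.5 and 4.47 under HFCD and 11.8, 5.35 and 7.51 on the control diet. HFCD+FMD libraries took both its lowest and its highest value. These ratios are descriptions of 13 libraries and carry no test.

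**Figure D3:**
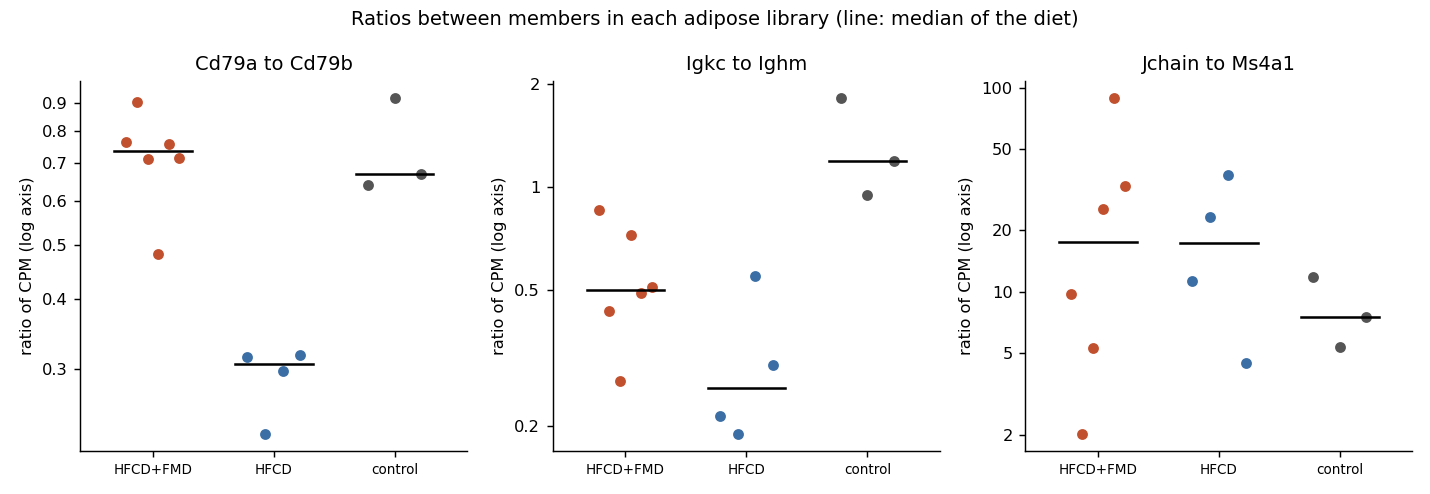
Ratios of CPM between 2 members (log axes) in each of the 13 adipose libraries, by diet, with the median of the diet as a line. The HFCD libraries lie lowest for Cd79a to Cd79b (0.229 to 0.318), and the control libraries lie highest for Igkc to Ighm (0.948 to 1.83).

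The members were set in 2 groups by kind, B cell surface and secretory, and their correlation on log2 CPM was taken across the 13 adipose libraries. Pearson's r was 0.852 to 0.915 for the 3 pairs among Ms4a1, Cd79a and Cd79b, and 0.590 to 0.882 for the 6 pairs among Jchain, Mzb1, Ighm and Igkc. For the 12 pairs that join the groups it was 0.185 to 0.692, which overlaps the secretory pairs. Cd79a with Igkc (0.692) lay above Ighm with Igkc (0.590). With diet means subtracted the ranges were 0.870 to 0.956, 0.575 to 0.852 and 0.101 to 0.534. The points share library, depth and tissue composition, so r is given as a description.

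The genes whose pattern was most like that of the B cell surface members included other genes of B cells. For Ms4a1 the highest r over 13 libraries belonged to Siglecg (0.923), an inhibitory lectin of B cells, and H2-DMb2, Cxcr5 and Pax5 were at 0.908 to 0.913. For Cd79a it was Ly6d (0.984), a surface protein of early B cells, then H2-DMb2, Spib, Pou2af1 and Blk at 0.908 to 0.922. For Cd79b it was Siglecg (0.936), then H2-DMb2, Blk, Spib and Tnfrsf13c.

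The secretory members had other neighbours. Those of Jchain were Tmem38a (0.888), Ptgis, Has2, Igkj2 and Rian, and those of Mzb1 were Has2 (0.902), Rian, Tmem158, Insyn1 and Derl3, the last a component of endoplasmic reticulum degradation. Ighm was most like B3gnt9 (0.963) and Ptk7 (0.943), with Clec2g, P4htm and Gpr153 next, and Igkc was most like Lrsam1 (0.894), with Rian, Epb41l3, AI661453 and Krtcap2 next.

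Ighm supplied 67.1 to 99.4% of the summed CPM of 7 heavy chain constant genes, and Igkc 94.0 to 99.2% of that of 4 light chain constant genes. All immunoglobulin genes together took 0.264 to 0.995% of counts in HFCD+FMD libraries, 0.138 to 0.330% in HFCD libraries and 0.0985 to 0.474% in control libraries. IgG genes made up 0.0758 to 6.44% of heavy chain CPM under HFCD+FMD, 0.253 to 1.52% under HFCD, and 30.5, 0.60 and 4.38% on the control diet. Control replicate 1, which carried heart muscle transcripts and had the fewest counts, was thus the one library with a large IgG share.

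The class-switched genes, which encode the IgG and IgA heavy chains made after B cells change class, varied widely between libraries. Ighg1 reached 58.1 CPM in HFCD+FMD replicate 4, and Ighg2b 123 CPM in HFCD+FMD replicate 5 and 93.8 CPM in control replicate 1. Ighg3 reached 77.8 CPM in control replicate 1, and Ighg2c and the lambda gene Iglc3 reached 93.4 and 78.4 CPM in control replicate 5. Ighg2c was also at 36.6 CPM in HFCD+FMD replicate 4, at 25.9 CPM in HFCD+FMD replicate 1 and at 11.0 CPM in control replicate 1. No library was highest for all of them.

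Of 11 constant genes tested, members included, 0 passed for HFCD+FMD against HFCD by edgeR, with 4 at an unadjusted p below 0.05, 1 called by DESeq2 and 0 by limma voom. On the same test 3 were lower for HFCD against control, where 14.2% of all genes passed as lower and 30.0% in either direction. For HFCD+FMD against control 1 was lower, where 9.25% of all genes passed as lower and 19.7% in either direction. DESeq2 called 3 lower for HFCD against control, and 1 higher and 1 lower for HFCD+FMD against control. With limma voom 0 of 11 passed for HFCD against control, and 1 was higher and 0 lower for HFCD+FMD against control. Ighg2c was at 1.59, 0.111, 0.177 and 3.41 CPM under HFCD, against 11.0, 3.33 and 93.4 CPM on the control diet (log2 fold change -4.82, SE 1.53, adjusted p = 0.0317), and Ighg3 fell by 4.49 (SE 1.54, adjusted p = 0.0426). For both genes HFCD and control overlapped. Iglc3 fell by 3.76 under HFCD (SE 0.93, adjusted p = 0.0107) and by 2.84 under HFCD+FMD (SE 0.78, adjusted p = 0.0248), both against control. Both high-fat diets overlapped control for Iglc3 too. It stood at 9.20, 2.76 and 78.4 CPM on the control diet, at 0.670 to 4.74 CPM under HFCD and at 1.84 to 7.41 CPM under HFCD+FMD. Without the 4 libraries with heart muscle transcripts 0 of 11 passed in either comparison by edgeR, with 1 and 2 at an unadjusted p below 0.05. Over all genes 374 passed there for HFCD against control and 112 for HFCD+FMD against control. Ighg3 stood at -0.92 for HFCD against control in that fit (adjusted p = 0.743 by edgeR). The IgG genes, and the lambda genes, resemble one another closely in sequence and reads may be split between them, so single members of these families are uncertain.

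**Figure D4:**
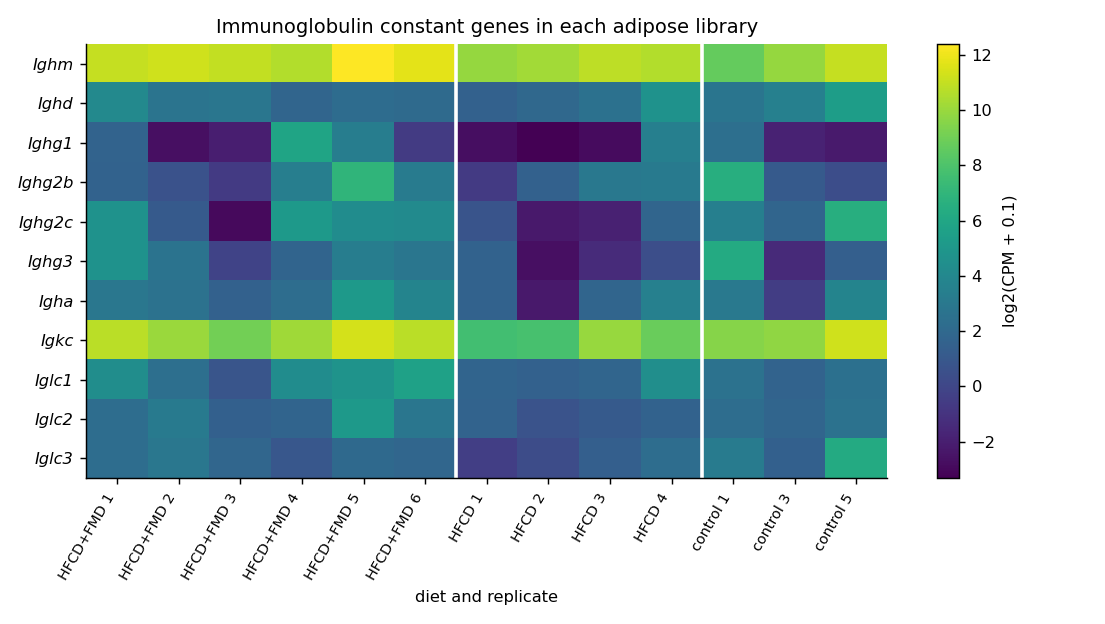
Level of 11 immunoglobulin constant genes (vertical axis) in each adipose library (horizontal axis, grouped by diet), as log2(CPM + 0.1) in colour. Ighm and Igkc are high in every library, and the IgG genes vary widely between libraries, with for example Ighg2b at 123 CPM in HFCD+FMD replicate 5.

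Variable segments, the parts of antibody genes that bind antigen, were present as 62 genes: 21 of the heavy chain, 38 of the kappa chain and 3 of the lambda chain. Their summed CPM was 85.7 to 754 in HFCD+FMD libraries (median 285), 76.0 to 192 in HFCD libraries and 80.4 to 465 in control libraries. The most abundant segment held 18.9 to 68.4% of that sum in a library. It was Igkv3-2 in 7 of 13 libraries, Igkv14-126 in 3, and Igkv6-14, Igkv12-89 and Igkv19-93 in 1 each. Similar segments share reads, so the share of a single segment is uncertain.

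The lists of other genes that follow are read beside the shares over all genes. By edgeR 30.0% of all genes passed for HFCD against control and 19.7% for HFCD+FMD against control. Fewer genes passed without the 4 libraries with heart muscle transcripts, in the lists and over all genes. Over all genes 374 passed without them for HFCD against control, where 4532 passed with all libraries. For HFCD+FMD against control it was 112 where 2978 had passed, and for HFCD+FMD against HFCD 1 where 31 had passed. The loss of calls in a list is therefore not particular to that list. Without them Cxcl13 alone passed among the B cell, plasma cell, signalling, germinal centre, attraction and immunoglobulin transport lists in any adipose comparison by edgeR. The medians of some lists moved as well. For HFCD+FMD against HFCD the medians without the 4 libraries were 0.16 for the B cell genes, -0.64 for the signalling genes, -0.91 for the immunoglobulin transport genes (-0.37 with all libraries), 0.27 for the plasma cell programme and 0.95 for the constant genes (1.64 with all libraries). For HFCD against control without them the median was 1.65 for the signalling genes, with 10 of 12 at an unadjusted p below 0.05, -0.63 for the B cell genes, with 2 of 16, and -0.09 for the plasma cell programme, with 2 of 12.

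Other genes of B cells were read from a list of 16. Between HFCD+FMD and HFCD 0 of 16 passed by edgeR, with a median log2 fold change of 0.52, 4 at an unadjusted p below 0.05, 1 called by DESeq2 and 0 by limma voom. The smallest p belonged to Pou2af1 (1.81, SE 0.60, adjusted p = 0.281) and Bank1, an adaptor of the B cell receptor (0.91, SE 0.33, adjusted p = 0.324). For HFCD against control 1 was lower and 1 higher (median -0.88), where 30.0% of all genes passed. Ebf1, the early B cell factor that adipocyte precursors also express, fell by 0.78 (SE 0.26, adjusted p = 0.0379), while Cd72, an inhibitory receptor of B cells that macrophages also carry, rose by 2.73 (SE 0.57, adjusted p = 0.00523). Pax5, the factor that keeps B cell identity, stood at -1.26 (SE 0.88, adjusted p = 0.293). Against control, HFCD+FMD moved only Cd72 of 16 past the threshold, higher by 1.72 (SE 0.53, adjusted p = 0.0384).

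Genes of B cell receptor signalling were mostly higher under the high-fat diet. Of 12, 11 were higher and 0 lower for HFCD against control, with a median log2 fold change of 1.77. Pik3ap1, an adaptor to phosphoinositide 3-kinase, rose by 3.5 (SE 0.65, adjusted p = 0.00312), the linker Blnk rose by 2.69 (SE 0.60, adjusted p = 0.00688) and the kinase Lyn rose by 1.29 (SE 0.27, adjusted p = 0.00496). Under HFCD+FMD 8 of 12 were higher than in control (median 1.35), with 10 by DESeq2 and 2 by limma voom. Without the 4 libraries with heart muscle transcripts 0 of 12 passed there by edgeR, with 3 at an unadjusted p below 0.05 and a median of 0.98. Over all genes 112 passed in that fit. Against HFCD 0 of 12 passed under HFCD+FMD by edgeR, DESeq2 or limma voom, 1 at an unadjusted p below 0.05 by edgeR, with a median of -0.37. Most of these genes are also used by myeloid cells. Of 12 macrophage markers 8 were higher and 0 lower for HFCD against control (median 1.73), and their summed CPM was 1650 to 4207 in HFCD+FMD libraries, 2777 to 5860 in HFCD libraries and 482 to 2353 in control libraries. Their part in the change of the signalling genes was not tested.

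Of 12 genes of the plasma cell programme, 0 passed for HFCD+FMD against HFCD by edgeR, DESeq2 or limma voom (median 0.23), with 2 at an unadjusted p below 0.05, where Xbp1, the factor that builds the secretory apparatus, was at 0.24 (SE 0.10, adjusted p = 0.414). For HFCD against control 2 were higher and 1 lower, where 30.0% of all genes passed. Prdm1, which encodes the plasma cell factor Blimp-1 and is also used by other immune cells, rose by 1.19 (SE 0.19, adjusted p = 0.00170), and Sdc1, a proteoglycan of plasma cells and many epithelia, rose by 1.43 (SE 0.39, adjusted p = 0.0158). Irf4, a factor of plasma cells, macrophages and adipocytes, fell by 2.08 (SE 0.49, adjusted p = 0.00869). Under HFCD+FMD, against control, Prdm1 rose by 1.15 (SE 0.18, adjusted p = 0.00301) and Irf4 fell by 1.60 (SE 0.43, adjusted p = 0.0238). Derl3, with few counts, was at 0.87 (SE 0.57, adjusted p = 0.593) for HFCD+FMD against HFCD.

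Among 8 tested genes of B cell attraction and survival, Cxcl13, the chemokine that draws B cells into lymphoid clusters, fell by 3.72 for HFCD against control (SE 0.64, adjusted p = 0.00220) and by 2.13 for HFCD+FMD against control (SE 0.53, adjusted p = 0.0175). It averaged 4.11 ± 1.30 CPM in HFCD+FMD libraries, 1.39 ± 0.745 CPM in HFCD libraries and 17.9 ± 18.5 CPM in control libraries (SD, n = 6, 4 and 3), and the HFCD libraries, at 0.670 to 2.23 CPM, lay below the lowest control library at 4.94 CPM. Its value for HFCD+FMD against HFCD was 1.58 (SE 0.55, adjusted p = 0.313). Without the 4 libraries with heart muscle transcripts Cxcl13 still passed, at -3.60 for HFCD against control (adjusted p = 0.0390) and -2.70 for HFCD+FMD against control (adjusted p = 0.0450). Il10 and Ltbr were higher against control under both high-fat diets, Il10 by 2.22 and 2.35 and Ltbr by 0.55 and 0.43 for HFCD+FMD and HFCD. Of the 8, 0 passed for HFCD+FMD against HFCD by edgeR or limma voom, 1 by DESeq2, and 2 had an unadjusted p below 0.05.

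Of 5 germinal centre genes tested, S1pr2 alone passed, higher by 1.79 for HFCD against control (SE 0.37, adjusted p = 0.00483) and by 1.4 for HFCD+FMD against control (SE 0.34, adjusted p = 0.0173); macrophages also carry this receptor. Of 5 genes of immunoglobulin transport and capture, Fcgr4, an IgG receptor of myeloid cells, rose by 3.34 for HFCD against control (SE 0.75, adjusted p = 0.00701) and by 2.5 for HFCD+FMD against control (SE 0.70, adjusted p = 0.0274). Of 11 T cell genes, Cd247 rose by 1.25 and Trac fell by 1.26 for HFCD against control (adjusted p = 0.00455 and 0.0105), and the 11 summed to 41.1 to 84.5 CPM in HFCD+FMD libraries, 48.7 to 62.6 CPM in HFCD libraries and 55.1 to 63.6 CPM in control libraries. Markers of the mesothelium, the lining of visceral fat, were lower for HFCD against control in 6 of 9, with a median of -2.09, and summed to 31.0 to 215 CPM in HFCD+FMD libraries, 23.6 to 124 CPM in HFCD libraries and 197 to 450 CPM in control libraries. Of 10 adipocyte markers 5 were lower and 1 higher for HFCD against control, and 3 were lower and 1 higher for HFCD+FMD against control. Of 10 cell division genes 10 were higher in both comparisons, with a summed CPM of 69.6 to 289 in HFCD+FMD libraries, 109.8 to 195 in HFCD libraries and 22.9 to 33.9 in control libraries. Without the 4 libraries with heart muscle transcripts 1 macrophage marker (higher) and 1 adipocyte marker (higher) passed for HFCD against control, where 374 of all genes passed. There 0 of the T cell, mesothelium and cell division genes passed by edgeR, with 2, 2 and 10 at an unadjusted p below 0.05. Whether these changes bear on the members was not tested.

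The heart libraries were scaled separately from the adipose ones, and on their own CPM scale Ighm and Igkc were low. Ighm stood at 3.90, 4.27, 9.68 and 8.67 CPM in the 4 HFCD+FMD libraries, at 8.48, 4.86, 6.19, 5.44 and 25.3 CPM in the 5 HFCD libraries and at 7.53, 5.08, 3.59, 8.60 and 3.66 CPM in the 5 control libraries. Igkc stood at 0.341, 1.15, 3.42 and 3.61 CPM in the HFCD+FMD libraries, at 1.73, 0.561, 1.51, 0.598 and 18.5 CPM in the HFCD libraries and at 2.15, 1.46, 1.68, 4.43 and 0.715 CPM in the control libraries. HFCD replicate 5 was the highest heart library for both genes, and all 3 diets overlapped. It is also the one library from a mouse of 22 months.

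The heart libraries belonged to 3 sets, recovered from a term that the deposited log2 values had lost, and the heart model held the set as a factor. Between HFCD+FMD and HFCD the log2 fold change was -1.06 for Ighm (SE 0.39, adjusted p = 0.303 by edgeR) and -2.31 for Igkc (SE 0.62, adjusted p = 0.143). Neither of the 2 passed, where 0.106% of all genes passed; both had an unadjusted p below 0.05, against 1454 of 13230 genes (11.0%), and DESeq2 and limma voom called 0. With age as a covariate the values for HFCD+FMD against HFCD were -0.54 for Ighm (adjusted p = 0.786) and -1.88 for Igkc (adjusted p = 0.623). For HFCD against control the values were 0.18 for Ighm (SE 0.32, adjusted p = 0.797) and -1.05 for Igkc (SE 0.53, adjusted p = 0.411), with 0 of 2 passing by edgeR, where 0.00% of all genes passed, and 0 at an unadjusted p below 0.05 or by DESeq2 or limma voom. Against control, HFCD+FMD gave -0.88 for Ighm (SE 0.42, adjusted p = 0.539) and -3.35 for Igkc (SE 0.73, adjusted p = 0.151), with 0 of 2 passing by edgeR, where 0.0227% of all genes passed, 1 at an unadjusted p below 0.05, 1 by DESeq2 and 0 by limma voom. Ranges of CPM stood apart for 0 of 2 in each comparison, and over all genes for 4.65% for HFCD+FMD against HFCD, 7.19% for HFCD against control and 9.02% for HFCD+FMD against control.

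Within sets the comparison of diets rests on few libraries. In set C, 3 HFCD+FMD libraries averaged 7.54 CPM of Ighm and 2.73 CPM of Igkc, against 25.3 and 18.5 CPM in the single HFCD library, replicate 5. In set A, 4 HFCD libraries averaged 6.24 CPM of Ighm and 1.10 CPM of Igkc, against 7.07 and 2.68 CPM in 3 control libraries. In set B, the single HFCD+FMD library, replicate 1, held 3.90 CPM of Ighm and 0.341 CPM of Igkc, against 3.62 and 1.20 CPM on average in 2 control libraries. The fitted values for HFCD+FMD therefore depend on HFCD replicate 5 and HFCD+FMD replicate 1. Without HFCD replicate 5 the values for HFCD+FMD against HFCD were 0.28 for Ighm (adjusted p = 0.961 by edgeR) and -0.46 for Igkc (adjusted p = 0.975). Without HFCD+FMD replicate 1 they were -1.76 for Ighm (adjusted p = 0.0328) and -2.79 for Igkc (adjusted p = 0.0466), and Igkc was at -4.12 for HFCD+FMD against control (adjusted p = 0.0376).

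Ighg2c, which encodes an IgG heavy chain of this strain, stood at 7.75 to 12.5 CPM in HFCD+FMD hearts, at 15.2 to 20.9 CPM in HFCD hearts and at 11.5 to 19.9 CPM in control hearts. The HFCD+FMD libraries lay below all HFCD libraries and the log2 fold change was -0.67 (SE 0.24, adjusted p = 0.277 by edgeR). It was less uneven across heart libraries than Igkc, and HFCD replicate 5 did not stand out for it. Its CPM lay above that of Igkc in every heart library, for example 10.5 against 0.341 CPM in HFCD+FMD replicate 1. It also lay above that of Ighm in all heart libraries but HFCD replicate 5. Ighg1, Ighg2b and Ighg3 were not analysed in heart, nor were Jchain and Mzb1. Which cells the Ighg2c reads came from was not tested.

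**Figure D5:**
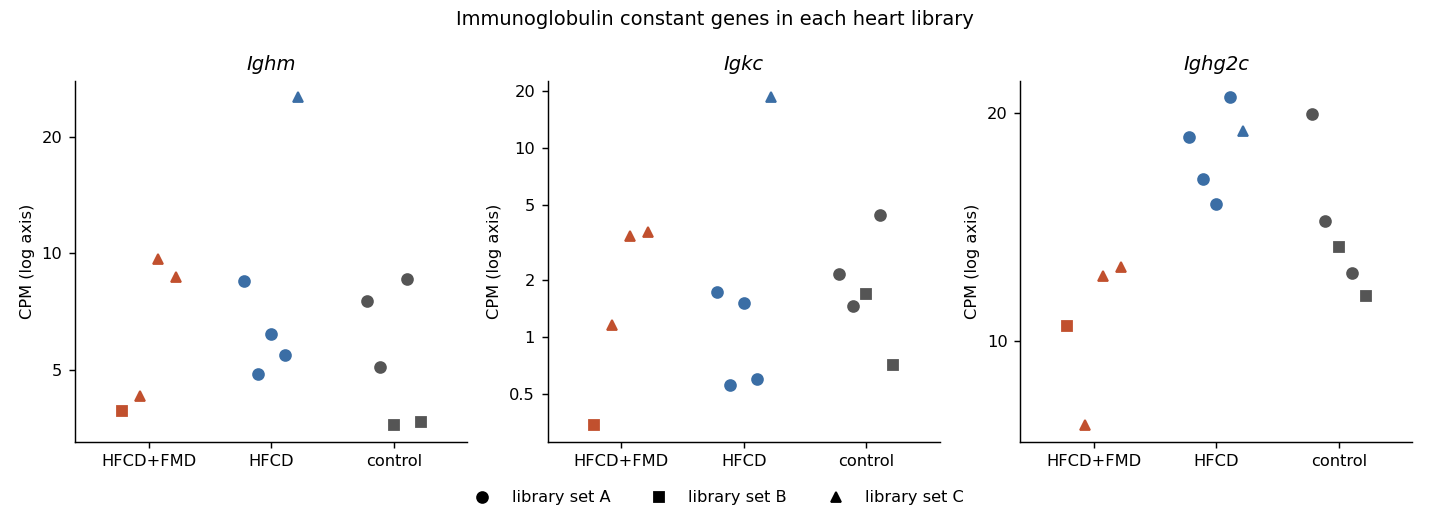
CPM (log axes) of Ighm, Igkc and Ighg2c in each heart library by diet (HFCD+FMD n = 4, HFCD n = 5, control n = 5), with the marker giving the library set. HFCD replicate 5, of set C, is highest for Ighm (25.3 CPM) and Igkc (18.5 CPM) and lies within its diet for Ighg2c.

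A joint model of both tissues, over 12606 genes, asked whether the log2 fold change of a diet comparison differed between them. Between HFCD+FMD and HFCD the effect in adipose tissue minus that in heart was 2.74 for Igkc (SE 1.14, adjusted p = 0.485 by edgeR) and 1.62 for Ighm (SE 0.68, adjusted p = 0.491). For HFCD against control it was -2.64 for Igkc (SE 1.16, adjusted p = 0.0961) and -0.53 for Ighm (SE 0.70, adjusted p = 0.60). Against control, HFCD+FMD gave 0.10 for Igkc and 1.08 for Ighm (adjusted p = 0.961 and 0.276). None of the 6 differences passed. The joint model held no library set. In heart alone, leaving the set out put Igkc at 1.14 for HFCD against control and at 0.010 for HFCD+FMD against control, where the model with the set gave -1.05 and -3.35. The part of tissue in these differences therefore cannot be told apart from that of the heart library sets.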

How the data were processed

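RNA was sequenced from adipose tissue and heart. Of 34 labelled libraries, 27 had columns in the deposited tables (13 adipose, 14 heart), and 7 were not analysed here. Per the submitters' processing notes, STAR 2.5.3, the build mm10, R 3.5.3, edgeR and limma were used; the counting program and its annotation are not given in the sources used here. Read counts per gene, not normalized, were deposited by the authors beside log2 CPM with 0.5 added to each count. In heart the deposited log2 values had lost 1 term per gene shared within each of 3 sets of libraries (A, B and C), whose meaning is not given.

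Each tissue was fitted with edgeR 4.0.16 in R 4.3.3, all 3 diets in 1 model (TMM scaling, filterByExpr on diet, robust quasi-likelihood F-test, two-sided, Benjamini-Hochberg over all genes tested, threshold 0.05), with set as a factor in heart. The interaction came from a joint fit without set, which treated the tissues as independent. CPM is TMM-scaled, and correlations used log2 CPM with a prior count of 2. A gene list counts as "passed" at that threshold. Coordinates and exon lengths came from GENCODE M21 (GRCm38). The scripts were tested on simulated data. No 2 libraries of a diet agreed within sampling noise, since chi-square per degree of freedom was at least 12.1 in 50 pairs.

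Alternatives were RLE scaling, DESeq2 1.42.0, limma 3.58.1 voom, no filter, a stricter one (1 CPM in 5 libraries), the 2 diets alone, a model with age, the authors' deposited log2 values, no set and each library left out; leaving out the 4 adipose libraries with over 10 CPM of Myh6 was chosen after seeing the data. The members and lists were chosen with earlier results of these data known. Named were all members, up to 4 called genes of each list by p (3 where none was called), and the 5 genes most correlated with each member (1 of them is not reported here); other constant genes were named after their values were seen. Replicate numbers follow accession order. The labels do not say that libraries of a diet came from separate mice, so p-values measure the spread between libraries, and counts limit precision only as counting error.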

Additional observations from a re-analysis of the deposited data

Results flagged for a closer look

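In groups of 4 to 6 libraries, a library whose gap to its nearest neighbour took most of the range of its diet was noted in 17 of 52 groups examined. The limit used gives 5% of groups only for values with a normal spread. CPM and ratios were taken without a log scale, and every library noted was the highest of its group. The rate for such values was not measured, so 17 of 52 cannot be read against 5%. Genes of 1 library are also not independent.

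In adipose tissue HFCD+FMD replicate 2 stood above its diet for the 3 B cell surface genes, at 24.2 CPM of Ms4a1 (next 8.18), 13.3 CPM of Cd79a (next 4.98) and 14.8 CPM of Cd79b (next 6.52). HFCD replicate 4 stood apart for Cd79a at 3.16 CPM (next 1.17), for Ighd, the IgD heavy chain gene of naive B cells, at 25.4 CPM (next 5.67), for Ighg1 at 11.0 CPM (next 0.0496) and for Iglc1 at 21.5 CPM (next 3.37). HFCD+FMD replicate 5 stood apart for Ighg2b at 123 CPM, Igha at 36.4 CPM, Iglc2 at 35.3 CPM and the ratio of Jchain to Ms4a1 at 89.1. HFCD+FMD replicate 1 did so for Ighd at 16.5 CPM and Ighg3 at 26.1 CPM, and HFCD+FMD replicate 4 for Ighg1 at 58.1 CPM. In heart, HFCD replicate 5 stood apart for Ighm at 25.3 CPM (next 8.48) and Igkc at 18.5 CPM (next 1.73), and HFCD replicate 1 for Ighd at 1.19 CPM (next 0.476).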

How the results depend on the processing

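Genes called, and members among them, changed with the method. In adipose tissue HFCD+FMD against HFCD called 31 genes, 302 (1 member) with DESeq2, 60 with limma voom and 1 without the 4 libraries with heart muscle transcripts. HFCD against control called 4532 genes and 1 member; the members numbered 0 with limma voom and 2 with age, and without the 4 libraries 374 genes and 0 members were called. HFCD+FMD against control called 2978 genes and 0 members, and 1 member with DESeq2, limma voom or the deposited log2 values; all genes numbered 1916 with limma voom, 1834 with only the 2 diets and 112 without the 4 libraries. In heart HFCD+FMD against HFCD called 14 genes, 279 with DESeq2, 0 with the stricter filter or no set, 268 with only the 2 diets, 2 with age and 1328 (2 members) with the deposited log2 values. HFCD against control called 0 genes, 61 with DESeq2 and 51 with the deposited values. HFCD+FMD against control called 3 genes, 145 (1 member) with DESeq2, 1 with limma voom or the stricter filter, 0 with only the 2 diets or no set and 1193 (1 member) with the deposited values. Leaving out 1 library at a time, adipose tissue gave 5 to 80 genes and 0 members for HFCD+FMD against HFCD, 2348 to 4854 genes and 0 to 1 members for HFCD against control, and 663 to 3500 genes and 0 to 1 members for HFCD+FMD against control. Heart gave 0 to 368 genes and 0 to 2 members, 0 genes and 0 members, and 0 to 217 genes and 0 to 1 members for HFCD+FMD against HFCD, HFCD against control and HFCD+FMD against control. Some log2 fold changes that had not passed changed sign. In adipose tissue, HFCD+FMD against control, Igkc was -0.14 with age and -0.24 without the 4 libraries, and Cd79b was 0.018 on the deposited values. In heart Ighm was -0.19 for HFCD against control and 0.095 for HFCD+FMD against control with only the 2 diets; with no set Igkc was 1.14 for HFCD against control and 0.010 for HFCD+FMD against control, where Ighm was 0.21. With 1 library left out, HFCD against control in adipose tissue gave -0.13 to 1.01 for Ighm, -1.15 to 0.34 for Cd79b and -1.58 to 0.058 for Mzb1. HFCD+FMD against control there gave -0.18 to 0.84 for Igkc, -0.57 to 0.74 for Cd79a, -0.53 to 0.79 for Cd79b, -1.19 to 0.75 for Ms4a1 and -0.14 to 1.42 for Jchain. In heart Ighm gave -0.19 to 0.38 for HFCD against control, -1.76 to 0.28 for HFCD+FMD against HFCD and -1.94 to 0.095 for HFCD+FMD against control. The cause of these differences was not tested. For HFCD+FMD against HFCD in adipose tissue all 7 members stayed above 0 in all 22 alternatives. The interaction, the levels and the correlations kept their direction and call under the alternatives run on them. For the interaction these were RLE scaling and no filter only. The fit with no filter kept the same 12606 genes and gave the same values, so it could not differ. Neither alternative held the heart library set. No paired analysis was possible because replicate numbers follow accession order and the labels tie no libraries to each other.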
